A study of Mus musculus with 12 samples.

Results

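The genes of oxidative phosphorylation were followed in CD31+ endothelial cells of the embryonic mouse forebrain with and without GPR124, the adhesion receptor that amplifies Wnt7 signals in brain vessels. Members were the protein-coding genes whose symbols begin with Nduf, Uqcr, Atp5, mt- or Cox4 to Cox8, together with Sdha, Sdhb, Sdhc and Sdhd. The rule found 106 members among the 49315 genes of the deposited tables, 93 of them nuclear and 13 mitochondrially encoded. Each of the 12 libraries came from the sorted CD31+/CD140b-/CD45- cells of 1 embryo at E15.5. There were 4 wild-type (WT) libraries (JE1, JE6, KE8, LE6), 4 Gpr124ΔC/ΔC libraries (JE3, JE4, LE2, LE5) and 4 Gpr124-/- libraries (KE4, ME1, ME4, ME5). Gpr124ΔC/ΔC embryos carried a knock-in allele on both chromosomes that ends the receptor in a V5 tag and a stop codon in place of the intracellular domain. Gpr124-/- embryos carried 2 copies of a lacZ null allele. Both alleles were germline, so every cell of the embryo lacked the same part of the receptor, and the embryos were derived from heterozygous crosses of each allele.

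Oxidative phosphorylation passes electrons from NADH and succinate through complexes I to IV of the inner mitochondrial membrane to oxygen, and complex V uses the resulting proton gradient to make ATP. Most subunits are encoded in the nucleus and imported, and a small set that includes the core membrane subunits of complexes I, III, IV and V is encoded on mitochondrial DNA, so that each complex other than complex II needs transcripts of both genomes. Endothelial cells are known for obtaining much of their ATP from glycolysis, while their respiratory chain is used for growth and for the supply of biosynthetic precursors.

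Library depth ranged from 13877572 to 22551163 reads on genes. The targeted gene Adgra2 (Gpr124) stood at 56.1 to 115 CPM in WT, 61.9 to 142 CPM in Gpr124ΔC/ΔC and 8.38 to 12.1 CPM in Gpr124-/-, where CPM is a gene's counts scaled to a common library size with edgeR's TMM factors. All 10 endothelial markers were detected in every library, with Pecam1 at 414 to 857 TPM, an abundance that also divides by transcript length. Endothelial markers summed to 10943 to 12106, 9660.2 to 12438 and 11206 to 13063 CPM in the same order, while 2 of the 10 were lower and 3 higher in Gpr124-/- than in WT by edgeR, among them Emcn (log2 fold change 1.26, adjusted p = 4.64e-07), Cdh5 (log2 fold change 0.74, adjusted p = 0.00169) and Tek (log2 fold change -0.73, adjusted p = 0.00795). Summed erythroid markers reached 1869 to 3160.1 CPM in WT, 1319 to 2834 CPM in Gpr124ΔC/ΔC and 4545 to 14866 CPM in Gpr124-/-. Summed platelet markers reached 109 to 195, 139.8 to 188 and 198 to 784 CPM by genotype, and 5 of 10 erythroid and 4 of 4 platelet markers passed the edgeR test in Gpr124-/- against WT. No erythroid or platelet marker passed in Gpr124ΔC/ΔC. Microglial markers summed to 3.505 to 7.54, 7.58 to 9.28 and 12.5 to 37.2 CPM by genotype, and 6 of the 8, including Ptprc and Aif1, were at 0 in 2 to 6 of the 12 libraries. The 2 tested in edgeR were P2ry12, which platelets also express and which was higher in Gpr124-/- (2.401 to 5.92 TPM in WT and 8.83 to 40.1 TPM in Gpr124-/-, log2 fold change 2.57, adjusted p = 0.000734), and Csf1r, which did not pass (log2 fold change 0.04, adjusted p = 0.973). Pericyte markers summed to 36.4 to 83.4, 20.5 to 42.4 and 54.99 to 80.7 CPM, and in Gpr124-/- Abcc9 was higher (log2 fold change 2.66, adjusted p = 0.000327) and Rgs5 lower (log2 fold change -1.47, adjusted p = 0.0186). Fibroblast markers summed to at most 100.4 CPM, with Pdgfra lower in Gpr124-/- (log2 fold change -2.55, adjusted p = 0.00835), and neuronal markers to at most 199.8 CPM, with Stmn2 higher (log2 fold change 1.25, adjusted p = 0.00109). Neural progenitor markers summed to at most 321 CPM, and none passed by edgeR in Gpr124-/- against WT (1 at an unadjusted p under 0.05). Every Gpr124-/- library was above every WT library in the erythroid, platelet and microglial sums, and their part in the differences below was not tested. In bulk RNA, a change in the share of a cell type and a change in RNA per cell cannot be told apart.

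Per length, the most abundant members were mitochondrially encoded. Averaged over the 12 libraries, mt-Cytb (complex III) stood at 7715 TPM, mt-Co1 (complex IV) at 7135 TPM and mt-Nd1 (complex I) at 5791 TPM. The highest nuclear member was Cox6a1 of complex IV at 1592 TPM, and the highest in each other complex were Atp5mpl (complex V, 1136 TPM), Ndufa1 (complex I, 880.3 TPM), Uqcr11 (complex III, 848 TPM) and Sdhd (complex II, 439.8 TPM). The median over the 93 nuclear members was 244 TPM, and the 13 mitochondrially encoded members made up 47.5% of the summed TPM of all members. TPM was lowered for every gene in JE3 and JE6, where the noncoding gene Gm23935 alone took 141220.0 and 124586 TPM, against at most 30359.5 TPM in the other 10 libraries. Comparisons between libraries are therefore given in TMM-scaled CPM, except where TPM or log2(TPM + 1) is named.

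Most of the tissue-restricted subunit isoforms were at low levels. Cox8b and Cox8c, a muscle and a testis isoform, were listed at 0 in 11 of the 12 libraries each. Cox6a2, the muscle isoform of Cox6a1, had 4 reads over all libraries, and Cox7a1, Cox7b2 and the lung-enriched Cox4i2 averaged 1.96, 0.651 and 1.89 TPM. These 6 genes failed the filter on low counts, which left 100 members tested (87 nuclear and all 13 mitochondrially encoded) among 16637 genes. Cox4i2 had TPM of 0.814, 1.36, 1.91 and 0.965 in WT, 1.03, 2.71, 1.42 and 0.242 in Gpr124ΔC/ΔC and 1.98, 4.996, 2.103 and 3.12 in Gpr124-/-. The 4 Gpr124-/- values lay above the 4 WT values (exact two-sided permutation test on log2(TPM + 1), p = 0.0286, the smallest p that 4 against 4 allows, unadjusted for the 106 members), at levels of at most 1.42 CPM. Its ubiquitous partner Cox4i1 averaged 915 TPM. Ndufa4l2, the hypoxia-induced relative of Ndufa4 that is also a pericyte-enriched gene, stood at 3.63, 2.97, 3.67 and 1.45 CPM in WT, 1.52, 2.95, 1.19 and 1.105 CPM in Gpr124ΔC/ΔC and 2.24, 1.69, 1.52 and 2.23 CPM in Gpr124-/-. Its groups overlapped, and its log2 fold changes of -0.61 (SE 0.35, adjusted p = 0.275) in Gpr124-/- and -0.80 (SE 0.36, adjusted p = 0.331) in Gpr124ΔC/ΔC did not pass the test. Cox6b2, the testis relative of Cox6b1, averaged 8.43 TPM against 1288 TPM for Cox6b1. The widely expressed partners Ndufa4, Cox7a2 and Cox8a averaged 694, 502 and 1028 TPM.

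Ndufv1 had the lowest log2 fold change of any nuclear member in Gpr124-/- against WT and was the only nuclear member below the test's threshold in both mutants. It encodes the flavoprotein core subunit of complex I that takes electrons from NADH (chr19:4007497-4012806, minus strand of mm10). Its CPM was 280.2, 270.3, 286 and 319 in WT, 148, 189, 189.6 and 208 in Gpr124ΔC/ΔC and 166, 159, 159.96 and 179.9 in Gpr124-/-, with embryos in the order given above. Every WT library lay above every mutant library, and the mutants overlapped. Means were 289 ± 21.1 in WT, 184 ± 25.2 in Gpr124ΔC/ΔC and 166 ± 9.75 in Gpr124-/- (SD, n = 4 each). The log2 fold change was -0.80 (SE 0.10, adjusted p = 0.000124) in Gpr124-/- and -0.65 (SE 0.10, adjusted p = 0.00261) in Gpr124ΔC/ΔC in edgeR's quasi-likelihood fit, with p-values adjusted by Benjamini-Hochberg over the 16637 genes. Neither reached the 2-fold change that the study's own threshold asks for. Between the mutants the difference was -0.15, with a 95% interval from -0.37 to 0.08. The first letter of the embryo labels (J, K, L or M, whose meaning is not given) differed between genotypes, and within a letter the log2 difference was -0.70 for J (2 Gpr124ΔC/ΔC against 2 WT), -0.68 for L (2 Gpr124ΔC/ΔC against 1 WT) and -0.79 for K (1 Gpr124-/- against 1 WT). With the letter as a term, the Gpr124-/- value was -0.79 (adjusted p = 0.025). Letter M holds Gpr124-/- libraries only, so that value rests on KE4 against KE8, the same pair as the K difference. Limma on log2(TPM + 1) gave -0.58 in Gpr124ΔC/ΔC with an adjusted p of 0.0688, which ended that call. With TPM rescaled without Gm23935, limma had 1 nuclear member passing in Gpr124ΔC/ΔC against WT.

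**Figure D1:**
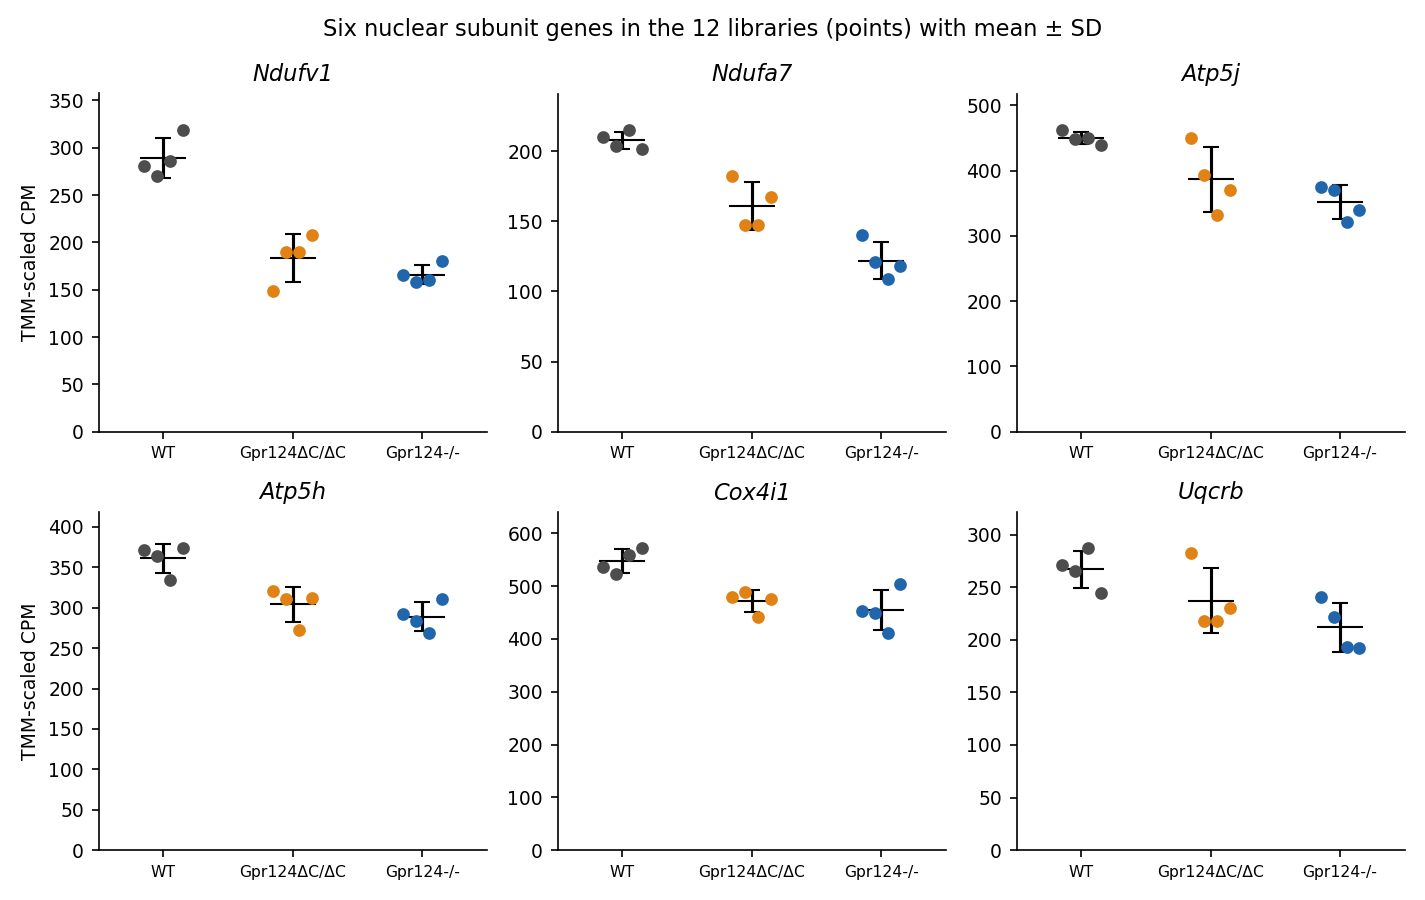
TMM-scaled CPM (vertical axis, from 0) of 6 nuclear subunit genes in the 4 WT, 4 Gpr124ΔC/ΔC and 4 Gpr124-/- libraries. Points are single libraries, and the bar and whiskers are the mean ± SD; all 4 Gpr124-/- points lie below all 4 WT points in each panel, and in the Ndufa7 panel the 3 genotypes do not overlap.

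The bases before the start of Ndufv1 are shown because it is the nuclear member that passed in both mutants, beside those of Ndufs8, a second complex I core subunit that lies on the same chromosome and was also lower in Gpr124-/-. Both come from RefSeq (GRCm38.p6), are printed 5′ to 3′ on the strand of the gene and leave out bases inside an annotated exon of any gene. The Ndufv1 stretch is chr19:4012807-4013005 and the Ndufs8 stretch is chr19:3912775-3913024, both on the minus strand. Capitals mark matches on either strand to any of 6 searched motifs, which here were an E box in Ndufv1 and CCAAT boxes in Ndufs8.
Ndufv1: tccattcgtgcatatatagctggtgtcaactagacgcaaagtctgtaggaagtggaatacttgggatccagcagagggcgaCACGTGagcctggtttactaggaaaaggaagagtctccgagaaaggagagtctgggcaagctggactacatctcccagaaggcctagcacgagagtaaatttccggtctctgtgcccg
Ndufs8: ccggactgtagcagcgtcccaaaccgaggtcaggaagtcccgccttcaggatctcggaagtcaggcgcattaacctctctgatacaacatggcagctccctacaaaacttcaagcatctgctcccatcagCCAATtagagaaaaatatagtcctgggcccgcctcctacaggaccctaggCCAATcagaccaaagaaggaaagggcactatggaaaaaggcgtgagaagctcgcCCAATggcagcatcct
Ndufv1 held 1 match and Ndufs8 held 3. The E box, CACGTG, was added to the search after these sequences were read. It was present in 7.59% of the 79 windows of 250 bases before a RefSeq start of a nuclear member, against 6.02% of all 32851 windows. The CCAAT box was in 43.0% of members' windows and 33.8% of all windows. Nuclear respiratory factor NRF1 and the ETS factor GABP are known regulators of respiratory genes. A palindrome made of GCGCA and its reverse complement, the NRF1 site, was in 6.33% of members' windows and 0.782% of all windows. The ETS word CCGGAAG was in 17.7% of members' windows and 6.91% of all windows. The YY1 word AAGATGGC was in 1.27% and 1.56%. The TCF/LEF word CTTTGAT, the site of the factors at the end of the Wnt pathway, was in 1.27% and 3.21%. The windows belonged to the 74 of 93 nuclear members that matched RefSeq by symbol.

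Ndufa7 was lower in Gpr124-/- than in either other genotype, with Gpr124ΔC/ΔC between them. It encodes an accessory subunit of complex I (chr17:33824591-33838316, plus strand). Its CPM was 210.2, 204, 215 and 201 in WT, 182, 147, 148 and 167 in Gpr124ΔC/ΔC and 140.04, 121, 109 and 118 in Gpr124-/-. No pair of genotypes overlapped. Means were 208 ± 6.24, 161 ± 16.996 and 122 ± 13.1 CPM (SD, n = 4 each). The log2 fold change was -0.77 (SE 0.10, adjusted p = 9.89e-05) in Gpr124-/- against WT and -0.40 (SE 0.10, adjusted p = 0.0212) in Gpr124-/- against Gpr124ΔC/ΔC. In Gpr124ΔC/ΔC against WT it was -0.37 (SE 0.10, adjusted p = 0.0524), just outside the threshold, with a 95% interval from -0.57 to -0.16. The exact permutation test on log2(TPM + 1) gave p = 0.0286 in each of the 3 comparisons. Within the letters, the log2 difference was -0.33 for J, -0.35 for L and -0.62 for K. With the letter as a term the calls were lost, at -0.62 (adjusted p = 0.0695) in Gpr124-/- against WT and -0.28 (adjusted p = 0.844) against Gpr124ΔC/ΔC. The first value rests on KE4 against KE8, and no letter holds both mutants. Over all tested genes the term cut the number passing from 3295 to 1025 and from 1468 to 212 in these comparisons. The call against Gpr124ΔC/ΔC was also lost without LE5 (0.0694), ME1 (0.065), ME4 (0.0669) or ME5 (0.0573), each an adjusted p.

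In Gpr124-/- against WT, 9 of the 87 tested nuclear members passed an adjusted p of 0.05, all of them lower, against 19.8% of all tested genes in either direction. None passed the study's threshold of an adjusted p under 0.05 with a change above 2-fold, here or under any alternative run (18 had an unadjusted p under 0.05), which 9.88% of all tested genes passed. Besides Ndufv1 and Ndufa7 these were 7 genes with smaller changes, from -0.35 to -0.25 on the log2 scale. Atp5j (Atp5pf) and Atp5h (Atp5pd) encode parts of the peripheral stalk of ATP synthase. Atp5j was at 462, 448, 449.5 and 439.5 CPM in WT and 375, 370.4, 322 and 340.1 CPM in Gpr124-/-, a log2 fold change of -0.35 (SE 0.09, adjusted p = 0.0168). Atp5h was at 372, 364, 334 and 374 CPM in WT and 292, 283, 269 and 311 CPM in Gpr124-/-, a log2 fold change of -0.32 (SE 0.08, adjusted p = 0.0111). For both genes the genotypes did not overlap. Uqcrb, a small subunit of complex III, was at 271, 265, 287 and 244 CPM in WT and 241, 221, 193 and 192 CPM in Gpr124-/-, with a log2 fold change of -0.33 (SE 0.11, adjusted p = 0.0449). Cox4i1, the ubiquitous isoform of the largest nuclear subunit of complex IV, was at 536, 523, 559 and 572 CPM in WT and 452, 449, 411 and 503 CPM in Gpr124-/-, with -0.27 (SE 0.08, adjusted p = 0.0257). These too did not overlap.

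The other 3 were subunits of complex I. Ndufs8, which carries iron-sulfur clusters in the core arm, was at 196, 182, 185 and 207 CPM in WT and 159.9, 164, 147 and 178 CPM in Gpr124-/- (log2 fold change -0.25, SE 0.08, adjusted p = 0.0411). The accessory subunit Ndufb11 was at 133, 137, 145 and 133 CPM in WT and 116, 117, 99.7 and 117 CPM in Gpr124-/- (log2 fold change -0.28, SE 0.08, adjusted p = 0.024). The accessory subunit Ndufa8 was at 181, 179.6, 193 and 192 CPM in WT and 158, 152, 139.9 and 169 CPM in Gpr124-/- (log2 fold change -0.27, SE 0.08, adjusted p = 0.0237). In each case the 4 Gpr124-/- libraries lay below the 4 WT libraries. Of the 87 nuclear members, 18 were lower in Gpr124-/- with no overlap and 2 were higher with no overlap, where 11.7% of all tested genes were lower and 11.1% higher with no overlap. The 7 smaller changes were close to the threshold, and in the fit with the letter as a term none of the 7 passed (adjusted p from 0.414 to 0.692), with log2 fold changes from -0.32 for Ndufb11 to -0.19 for Atp5h; those of Cox4i1 (-0.30), Ndufa8 (-0.29) and Ndufb11 were farther from 0 than without the term. That fit passed 1025 of all tested genes, against 3295 without the term, and its Gpr124-/- values against WT rest on KE4 against KE8. In the fit without the term, the number of nuclear members that passed was 4 without KE8, 5 without ME1 and 4 without ME4. Part of Cox4i1 overlaps Emc8, part of Ndufb11 overlaps Rbm10 and part of Atp5j overlaps Gabpa on the opposite strand, and the counting program's use of strand is not given, so reads of those parts cannot be assigned to 1 gene.

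Across the nuclear members the differences from WT were small and mostly of one sign. In Gpr124-/-, 71 of 87 log2 fold changes were below 0, and their median was -0.12, while 50.99% of all tested genes were below 0, with a median of -0.01. Of the other lists described below, 34 of 43 electron carriers and assembly factors (median -0.12) and 20 of 27 regulators (median -0.12) were below 0. So were 50 of 78 mitochondrial ribosomal protein genes, 10 of 17 citric acid cycle genes, 13 of 24 carriers and import genes and 29 of 98 cytosolic ribosomal protein genes. The median of the members was -0.07 without ME4 (64 of 87 below 0), -0.07 with the label letter as a term (67 below 0) and -0.08 by limma on log2(TPM + 1) (62 below 0). The spread between libraries of 1 genotype was small for these genes, with a median coefficient of variation of 4.72% over the WT libraries against 16.2% for all tested genes. The 95% interval of the log2 fold change lay within ±0.5 for 77 of the 87 members and for 27.5% of all tested genes, so changes larger than that were outside the interval for most members. That share was 88.5% for the members, 87.5% for carriers and import genes and 58.1% for electron carriers and assembly factors. It was 85.9% for mitochondrial and 83.7% for cytosolic ribosomal protein genes. All tested genes were not matched to the members for abundance. Members are not independent of each other, since they share the same libraries and scaling, and no test was made over the list. Within the label letters, the median log2 difference over the nuclear members was -0.07 for K (1 Gpr124-/- against 1 WT), -0.02 for J and -0.16 for L (both Gpr124ΔC/ΔC against WT), beside 0.02, 0.00 and -0.01 over all tested genes. The 3 Gpr124-/- libraries of letter M have no WT library of their letter, so for them letter and genotype cannot be told apart. The Gpr124-/- value with the letter as a term therefore rests on KE4 against KE8.

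By role, the 7 core subunits of complex I, which hold its redox centres, were all below 0 in Gpr124-/- (median log2 fold change -0.16, 2 passing), as were 28 of its 29 accessory subunits (median -0.13, 3 passing), where 50.99% of all tested genes were below 0 and 19.8% passed. Of the 8 complex I assembly factors, 6 were below 0 and none passed by edgeR (3 had an unadjusted p under 0.05); the lowest was Ndufaf1 at -0.37 (SE 0.12, adjusted p = 0.0538) and the highest Ndufaf2 at 0.32 (SE 0.13, adjusted p = 0.124). Complex III had 7 of 8 below 0 (median -0.12, 1 passing) and complex V 13 of 17 (median -0.04, 2 passing). Complex IV was divided, with 7 of 14 below 0 and a median of 0.02, and Cox4i1 alone passed. The share that passed was 28.6% for the complex I core subunits, 10.3% for its accessory subunits, 12.5% for complex III, 7.14% for complex IV and 11.8% for complex V, so it was above that of all tested genes for the core subunits, by 2 genes of 7, and below it for the others. Cox6a1, the most abundant nuclear member by TPM though not by CPM, was at 396, 392, 394 and 419 CPM in WT and 384, 407, 344 and 417 CPM in Gpr124-/-. Its groups overlapped, with a log2 fold change of -0.04 (SE 0.08, adjusted p = 0.748) by edgeR. The 4 subunits of complex II, the succinate dehydrogenase of the citric acid cycle, all missed the threshold in every comparison by edgeR, and the only unadjusted p under 0.05 was that of Sdhd in Gpr124ΔC/ΔC against WT. Sdha, the flavoprotein, had -0.13 (SE 0.11, adjusted p = 0.499) in Gpr124-/-, and Sdhb, Sdhc and Sdhd had 0.09, -0.13 and -0.14. All intervals of these 4 genes against WT and between the mutants lay within ±0.5. Cox7a2l, which joins complexes III and IV into supercomplexes, had 0.06 (SE 0.13, adjusted p = 0.789).

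**Figure D2:**
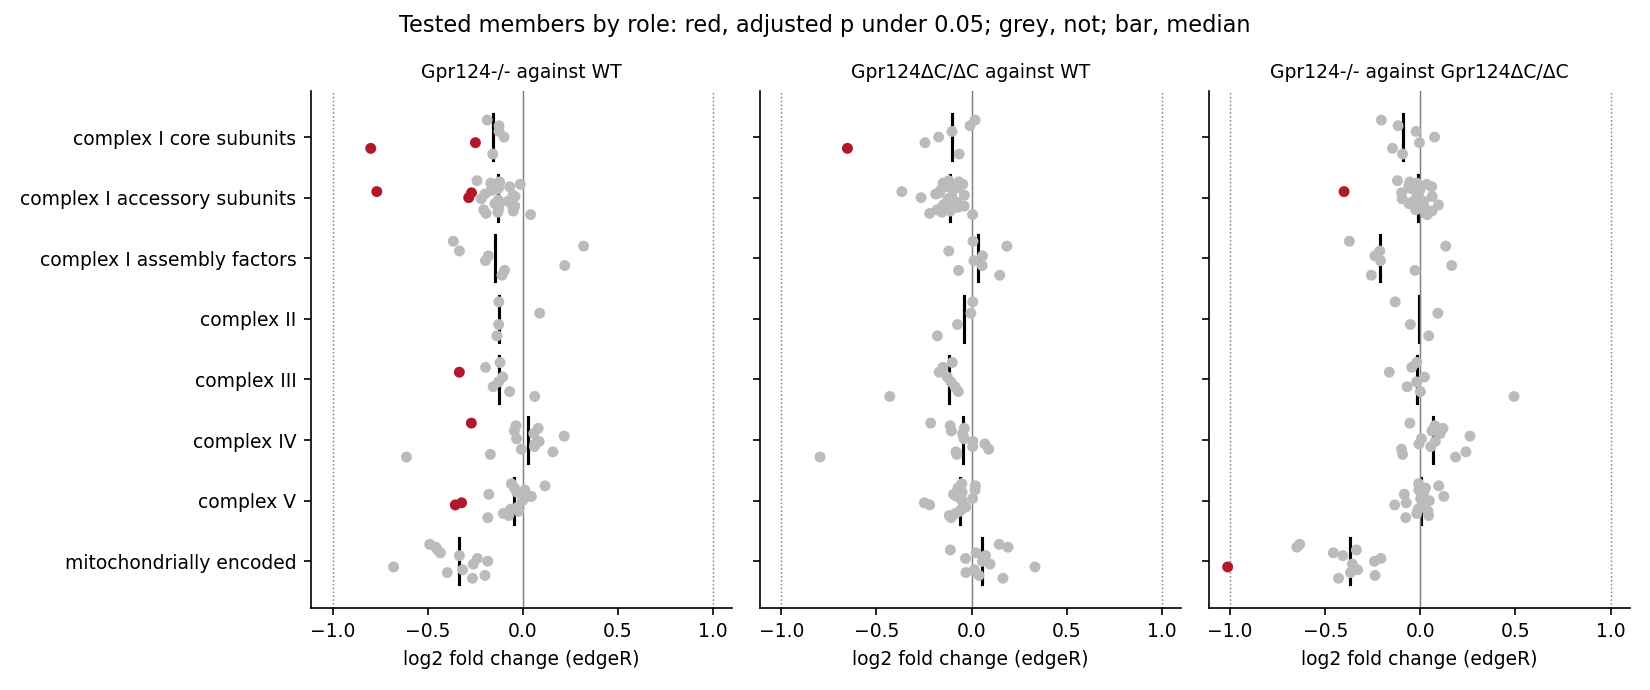
Log2 fold change (horizontal axis) of the 100 tested members, grouped by role, in the 3 comparisons. Each point is 1 gene, red at an adjusted p under 0.05, the black bar is the median of the group and the dotted lines mark 2-fold; nuclear points cluster just left of 0 against WT, with Ndufv1 apart in red in both of those panels, Ndufa7 in red in Gpr124-/- and in grey in Gpr124ΔC/ΔC, and Ndufa4l2 apart in grey, and mitochondrially encoded points lie left of 0 in both Gpr124-/- panels.

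In Gpr124ΔC/ΔC against WT, 1 of 87 nuclear members passed, Ndufv1, where 4.09% of all tested genes did, and no nuclear member passed the study's threshold by edgeR or under an alternative (13 had an unadjusted p under 0.05), which 1.92% of all tested genes did. The sign was again mostly negative, with 71 of 87 below 0 and a median of -0.08, or -0.13 without JE3. Both mutants were compared with the same 4 WT libraries, so the likeness of these counts is no independent support. On log2(TPM + 1) the number below 0 was 47 and the median -0.0075, on a scale where the median of all tested genes stood at 0.07. By edgeR, 33 of 43 electron carriers and assembly factors and 58 of 78 mitochondrial ribosomal protein genes were also below 0. The same held for 12 of 27 regulators and 33 of 98 cytosolic ribosomal protein genes. Of the members, 16 were lower than WT with no overlap and 0 higher, against 6.03% of all tested genes lower and 5.27% higher with no overlap. Among the genes that passed in Gpr124-/-, Atp5h stood at 321, 310.3, 273 and 312 CPM in Gpr124ΔC/ΔC (log2 fold change -0.25, SE 0.08, adjusted p = 0.12). Ndufb11 stood at 122, 111, 106 and 115 CPM (log2 fold change -0.27, SE 0.08, adjusted p = 0.0965) and Ndufs8 at 159.8, 161, 158 and 171 CPM (log2 fold change -0.24, SE 0.08, adjusted p = 0.123). Cox4i1 stood at 480.04, 489, 441 and 475 CPM (log2 fold change -0.22, SE 0.08, adjusted p = 0.18) and Ndufa8 at 169, 163, 158 and 172 CPM (log2 fold change -0.17, SE 0.08, adjusted p = 0.316). All 5 lay below WT with no overlap, and none passed. Atp5j, at 449.96, 393, 332 and 370.02 CPM, and Uqcrb, at 283, 218, 218 and 230.1 CPM, overlapped WT through JE3. For 82 of the 87 members the 95% interval lay within ±0.5.

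Between the mutants, Gpr124-/- against Gpr124ΔC/ΔC, Ndufa7 alone among the 87 nuclear members passed, against 8.82% of all tested genes, and 49 of 87 were below 0 (median -0.01). The median turned to 0.03 without ME4 and to 0.03 without JE3, with 32 and 34 of 87 below 0. None of the nuclear members passed the study's threshold by edgeR or under an alternative (5 had an unadjusted p under 0.05), which 4.6% of all tested genes did. Lower values with no overlap were found for 2 nuclear members and for 6.84% of all tested genes, and higher ones for 1 nuclear member and for 7.03% of all tested genes. Ndufs8 differed by -0.00453 on the log2 scale, with a 95% interval from -0.17 to 0.17, and Ndufb11 by -0.02, with an interval from -0.19 to 0.15. The interval lay within ±0.5 for 80 of 87 nuclear members. Uqcrq, a small subunit of complex III, had the highest nuclear log2 fold change (log2 fold change 0.49, SE 0.16, adjusted p = 0.0779).

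Read as a share of the library, the nuclear members took 1.57 to 1.65% of counts in WT, 1.53 to 1.64% in Gpr124ΔC/ΔC and 1.41 to 1.59% in Gpr124-/-, ranges that overlap. The mitochondrially encoded members varied far more between libraries. They took 1.41, 1.14, 1.29 and 0.967% in WT, 1.69, 1.13, 1.06 and 1.05% in Gpr124ΔC/ΔC and 1.13, 1.29, 0.886 and 0.585% in Gpr124-/-. JE3 of Gpr124ΔC/ΔC was the highest of the 12 and ME5 of Gpr124-/- the lowest, and the genotypes overlapped. Hemoglobin genes took 0.436 to 1.45% of counts in Gpr124-/- and at most 0.305% in the other 8 libraries. Leaving them out together with the 5 genes with most reads moved the mean share of mitochondrially encoded members in Gpr124-/- from 0.972% to 1.02%, against 1.201% and 1.24% in WT.

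**Figure D3:**
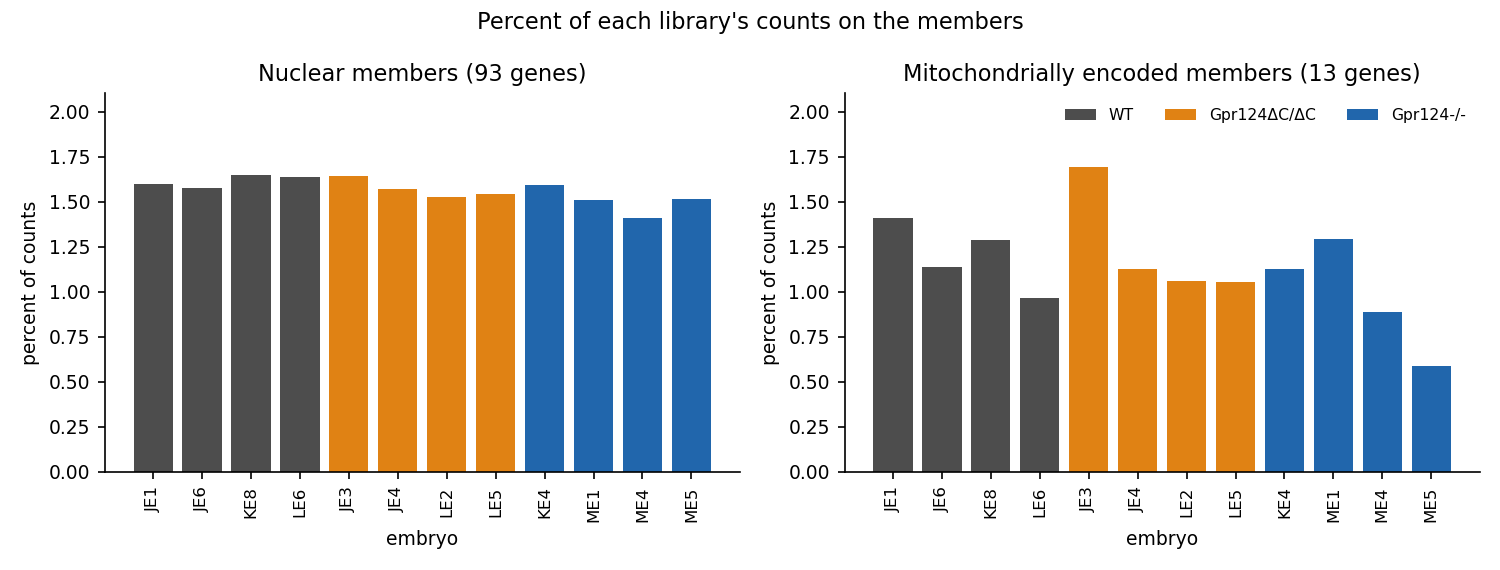
Percent of each library's counts (vertical axis, from 0) on the 93 nuclear and the 13 mitochondrially encoded members, 1 bar per embryo, coloured by genotype. The nuclear bars are nearly level, while the mitochondrially encoded bars run from the lowest in ME5 to the highest in JE3.

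None of the 13 mitochondrially encoded members passed in Gpr124-/- against WT by edgeR (1 at an unadjusted p under 0.05, and 1, mt-Nd3, by DESeq2), although all 13 log2 fold changes were below 0, with a median of -0.33. The 13 transcripts are cut from shared precursors of 1 small genome, so they do not count as 13 observations. Within Gpr124-/-, mt-Cytb, the mitochondrially encoded subunit of complex III, had 2962, 3642, 2561 and 1879 CPM against 3714, 2985, 3499 and 2834 CPM in WT. Its log2 fold change was -0.24 (SE 0.20, adjusted p = 0.473). ME5 had the lowest CPM of the 12 libraries for each of the 13 members. mt-Co1, the catalytic subunit of complex IV, had 3677, 3959, 3043 and 2019 CPM against 5261, 4242, 4768 and 3045 CPM in WT (log2 fold change -0.45, SE 0.23, adjusted p = 0.209). mt-Nd5, a proton-pumping subunit of complex I, had 725, 821, 574 and 317 CPM against 768, 648, 738 and 643 CPM in WT (log2 fold change -0.20, SE 0.23, adjusted p = 0.614). The groups overlapped in each case. mt-Nd3, described below with the gene that shares its reads, had the lowest log2 fold change of the 13 (-0.68). The other log2 fold changes ran from -0.49 for mt-Atp6, a proton channel subunit of complex V, and -0.46 for mt-Atp8 of the same complex to -0.18 for mt-Nd1, with mt-Co2 at -0.43, mt-Co3 at -0.33 and the complex I subunits mt-Nd2, mt-Nd4, mt-Nd4l and mt-Nd6 at -0.26, -0.32, -0.40 and -0.26. None of these passed. The median over the 13 was -0.15 without ME5, -0.51 without ME1 and -0.15 with the letter as a term, and within letter K, KE4 against KE8, it was -0.12. The value with the letter as a term rests on that same pair. Intervals were wide: mt-Cytb ran from -0.67 to 0.19 and mt-Nd6 from -0.95 to 0.42, and no interval of the 13 lay within ±0.5.

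In Gpr124ΔC/ΔC against WT none of the 13 passed by edgeR or by DESeq2 (0 at an unadjusted p under 0.05), and 3 were below 0 with a median of 0.06. JE3 had the highest CPM of the 12 libraries for all 13, with mt-Cytb at 4378 CPM in JE3 and 2897, 2774 and 2699.8 CPM in the other 3 Gpr124ΔC/ΔC libraries. Without JE3 the median turned to -0.13, and within letters J and L it was 0.21 and 0.04. The spread within a genotype was larger than for nuclear members: their median coefficient of variation was 12.8% in WT, 25.04% in Gpr124ΔC/ΔC and 33.3% in Gpr124-/-, against 4.72%, 8.28% and 8.07% for nuclear members. Between the mutants all 13 were below 0, with a median of -0.37, and mt-Nd3 alone passed (7.69% of the 13), where 52.6% of all tested genes were below 0 and 8.82% passed. That median was -0.17 without JE3, -0.17 without ME5 and -0.56 without ME1.

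**Figure D4:**
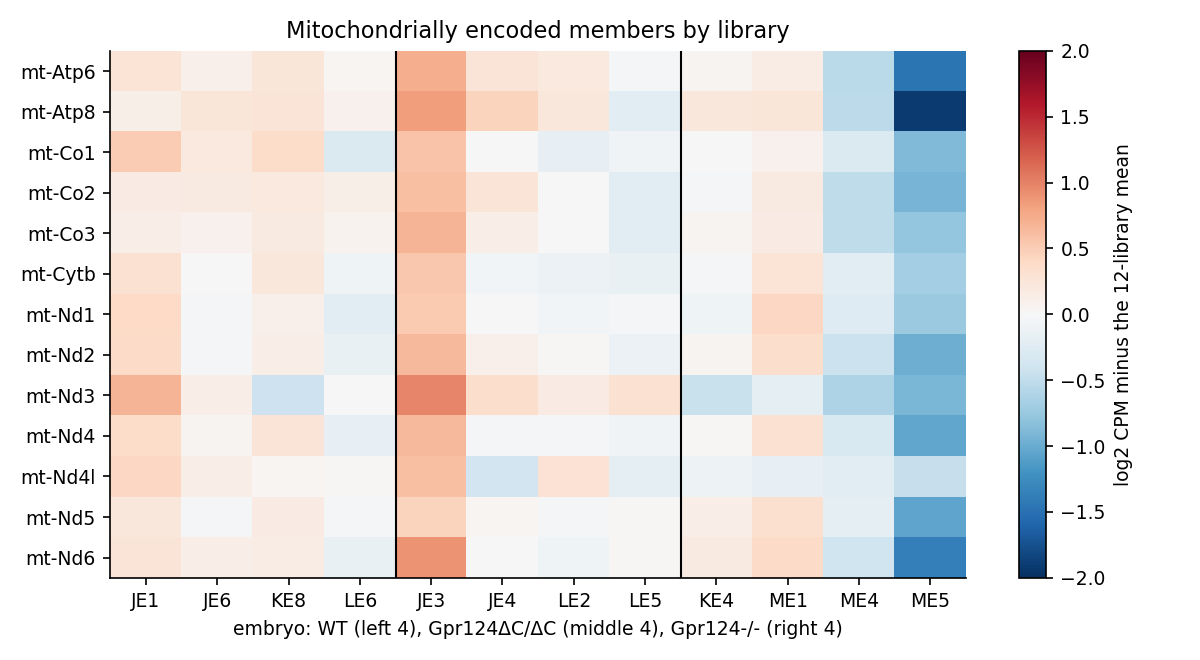
Log2 CPM of the 13 mitochondrially encoded members (rows) minus each gene's mean over the 12 libraries (columns, grouped by genotype), red above and blue below the mean. Whole columns share a colour, red for JE3 and blue for ME5 and ME4, while mt-Nd3 is blue in KE8 and KE4, where most other rows are pale or red.

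mt-Nd3, a small membrane subunit of complex I, had the lowest log2 fold change of the members that passed in any comparison. Its CPM was 22.5, 15.4, 10.6 and 14.02 in WT, 27.8, 17.9, 15.7 and 17.4 in Gpr124ΔC/ΔC and 10.3, 12.2, 9.14 and 7.44 in Gpr124-/-. Gpr124-/- lay below Gpr124ΔC/ΔC with no overlap, a log2 fold change of -1.01 (SE 0.25, adjusted p = 0.0238), past the study's threshold. The gene shares its sequence with a nuclear copy, however: 97.6% of its 100-base windows also occur in Gm28438, so most reads of one could equally be assigned to the other. Counts on mt-Nd3 were 497, 260, 205 and 270 in WT, 440, 255, 224 and 284 in Gpr124ΔC/ΔC and 180, 181, 198 and 127 in Gpr124-/-. Counts on Gm28438 were 147, 107, 390 and 121, 160, 100, 73 and 89 and 335, 340, 335 and 234 in the same order. mt-Nd3 thus held 69.1% to 77.2% of the pair's reads in the 7 libraries of letters J and L and 34.5% to 37.1% in the 5 of letters K and M. The WT library KE8 had 34.5% and the Gpr124-/- library of the same letter, KE4, 34.95%. KE8 is the 1 library of letters K and M that is not Gpr124-/-, so beyond it letter and genotype cannot be told apart. With the reads of each mitochondrially encoded gene and its copies summed, mt-Nd3 differed by 0.05 between the mutants (adjusted p = 0.915) and by 0.11 between Gpr124-/- and WT (adjusted p = 0.78), and none of the 13 passed in any comparison.

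The other copied genes did not divide by letter. mt-Atp6, mt-Co2, mt-Co3 and mt-Nd4l share 99.5%, 99.5%, 99.8% and 98.5% of their windows with nuclear copies. mt-Atp6 held 54.4% to 57.8% of the reads of its pair over all 12 libraries, and mt-Co3 36.4% to 38.9%. Reads on the copies are missing from the TPM of the mitochondrial gene. mt-Co3 stood at 680.3 TPM and mt-Co2 at 355 TPM beside 7135 TPM for mt-Co1, the third subunit gene of the same complex, of whose windows 30.8% are shared. In JE1, mt-Co2 and its copies had 2024 and 3067 reads, and mt-Co3 and its copy 4377 and 7458. For mt-Co1 and its copies the reads were 116055 and 7315. The cause of the differences in level between these 3 genes was not tested. mt-Cytb, mt-Nd1, mt-Nd5 and mt-Nd6 shared no window with an annotated transcript of another gene, and Ndufv1, Ndufa7, Ndufa8 and Ndufs8 shared none either. The other nuclear members that passed did share windows with other genes. These shares were 11.5% for Atp5h, 8.89% for Uqcrb, 3.13% for Cox4i1, 3.04% for Atp5j and 2.23% for Ndufb11.

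**Figure D5:**
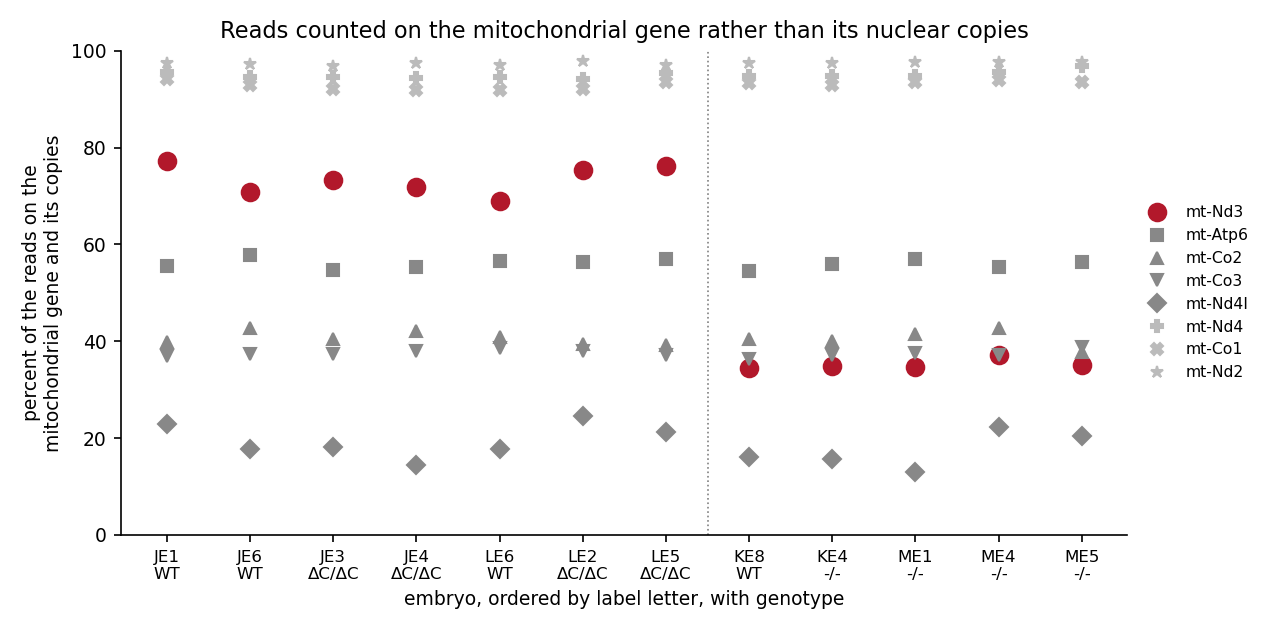
Percent of the reads on a mitochondrially encoded gene and its annotated nuclear copies that were counted on the mitochondrial gene (vertical axis, 0 to 100%), for 8 genes in the 12 libraries ordered by label letter. mt-Nd3 (red) stands at 69.1% to 77.2% left of the dotted line (letters J and L) and at 34.5% to 37.1% right of it (letters K and M), where 1 WT library lies with the 4 Gpr124-/- libraries; the other 7 genes overlap across it.

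In the other lists of mitochondrial genes, the shares that passed were mostly near or below those of all tested genes, 19.8% in Gpr124-/- against WT, 4.09% in Gpr124ΔC/ΔC against WT and 8.82% between the mutants. Among electron carriers and assembly factors other than the Ndufaf genes, 7 lower and 0 higher of 43 passed in Gpr124-/- against WT, 1 lower and 0 higher of 43 in Gpr124ΔC/ΔC against WT and 2 lower and 0 higher of 43 between the mutants, which are 16.3%, 2.33% and 4.65%. Etfdh, which hands electrons from fatty acid and amino acid oxidation to ubiquinone, was at 144 ± 9.099 CPM in WT and 68.3 ± 7.66 CPM in Gpr124-/-, a log2 fold change of -1.08 (adjusted p = 7.97e-06). Its electron donors Etfa and Etfb had -0.47 (adjusted p = 0.00801) and -0.65 (adjusted p = 0.00121). All 3 genes fell in Gpr124-/-, and Etfdh also fell in Gpr124ΔC/ΔC, by 0.52 (adjusted p = 0.00874) on the log2 scale. Etfdh was lower in Gpr124-/- than in Gpr124ΔC/ΔC, with -0.56 (adjusted p = 0.00408). The complex IV factors Coa7 and Taco1 had -0.51 (adjusted p = 0.00218) and -0.58 (adjusted p = 0.0368) in Gpr124-/- against WT, and Coa7 had -0.37 (adjusted p = 0.0314) against Gpr124ΔC/ΔC.

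Of the regulators of respiratory gene expression and mitochondrial DNA upkeep, 1 lower and 2 higher of 27 passed in Gpr124-/- against WT (11.1%, against 19.8% of all tested genes) and none in the other comparisons by edgeR (unadjusted p under 0.05 for 3 in Gpr124ΔC/ΔC against WT and 2 between the mutants). Ppargc1a, the coactivator PGC-1α, was at 1.56 ± 0.328 CPM in WT and 0.598 ± 0.187 CPM in Gpr124-/-, a log2 fold change of -1.36 (adjusted p = 0.0167). Its relatives Ppargc1b and Pprc1 rose, by 1.30 (adjusted p = 0.0007) and 0.53 (adjusted p = 0.00722). Ppargc1b was at 2.21 ± 0.335 CPM in WT and 5.46 ± 0.608 CPM in Gpr124-/-, so both Ppargc1a and Ppargc1b were low transcripts in both genotypes. Of the citric acid cycle genes, 1 lower and 2 higher of 17 passed in Gpr124-/- (17.6%) and 0 lower and 1 higher of 17 in Gpr124ΔC/ΔC (5.88%, against 4.09% of all tested genes), and none between the mutants by edgeR (1 at an unadjusted p under 0.05). Idh2, the mitochondrial NADP-dependent isocitrate dehydrogenase, rose to 456 ± 45.6 CPM in Gpr124-/- from 310.4 ± 5.16 CPM in WT (log2 fold change 0.55, adjusted p = 0.00065) and rose in Gpr124ΔC/ΔC by 0.43 (adjusted p = 0.0133). Dlst rose by 0.33 (adjusted p = 0.0429) and Sucla2 had -0.38 (adjusted p = 0.0419) in Gpr124-/-. Among carriers and import genes 1 lower and 0 higher of 24 (4.17%) passed in Gpr124-/-, the small import chaperone Timm8b with -0.30 (adjusted p = 0.0119), and none in the other comparisons by edgeR (2 and 2 at an unadjusted p under 0.05).

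Of the uncoupling and antioxidant genes, 1 lower and 1 higher of 10 passed in Gpr124-/-, 1 lower and 0 higher of 10 in Gpr124ΔC/ΔC against WT and 1 lower and 0 higher of 10 between the mutants. These are 20%, 10% and 10%, beside 19.8%, 4.09% and 8.82% of all tested genes. Cat, the peroxisomal catalase, was at 434 ± 10.99 CPM in WT and 205 ± 27.8 CPM in Gpr124-/- (log2 fold change -1.09, adjusted p = 2.56e-05) and was also lower than in Gpr124ΔC/ΔC (log2 fold change -0.70, adjusted p = 0.00281). Txnrd2 rose by 0.52 (adjusted p = 0.00578), and Ucp2, the uncoupling protein relative, had -0.56 (adjusted p = 0.0332) in Gpr124ΔC/ΔC. Mitochondrial ribosomal protein genes had 3 lower and 2 higher of 78 passing in Gpr124-/- (6.41%, against 19.8% of all tested genes), the lower ones led by Mrpl41 at -0.40 (adjusted p = 0.0029) and the higher by Mrps11 at 0.54 (adjusted p = 0.00543). In Gpr124ΔC/ΔC, Mrpl41 was the only one that passed (1.28%, against 4.09% of all tested genes), with -0.32 (adjusted p = 0.0364). Between the mutants none passed by edgeR (9 at an unadjusted p under 0.05). Genes named as cytosolic ribosomal proteins had 4 lower and 6 higher of 98 passing in Gpr124-/- against WT (10.2%), 1 lower and 0 higher of 98 in Gpr124ΔC/ΔC (1.02%) and 2 lower and 2 higher of 98 between the mutants (4.08%), and the list takes in Rps6ka2 (log2 fold change 1.69, adjusted p = 0.00512) and Rps6ka4, which encode kinases and not ribosomal proteins. Rpl38, a protein of the large cytosolic subunit, was at 507 ± 21.8 CPM in WT and 218 ± 27.7 CPM in Gpr124-/- (log2 fold change -1.22, adjusted p = 3.06e-06), and in Gpr124ΔC/ΔC at 331 ± 29.1 CPM (log2 fold change -0.62, adjusted p = 0.00304).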

How the data were processed

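Reads of 12 libraries (SMART-Seq v4 from sorted cells of 1 embryo each, poly(A), paired-end) were processed by the authors' provider, and the submitters' processing notes name bcl2fastq 2.17 and mm10. The aligner and counting program are not given in the sources used here. The authors deposited raw counts per gene for each library and a table of TPM over the whole series, which equals counts divided by length and rescaled, for TPM above 1 to within 0.00498%. Groups and embryo names were taken from the labels.

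Counts were tested with edgeR 4.0.16 (quasi-likelihood, TMM, default filterByExpr, all 12 libraries, genotype only) in R 4.3.3, with Benjamini-Hochberg adjustment over 16637 genes. Members were chosen by GENCODE vM21 symbols. Intervals are 95% and cover the spread between libraries, each of which is a separate embryo. Single TPM values were tested by an exact two-sided permutation test on log2(TPM + 1) over 70 orders, whose smallest p is 0.0286. Alternatives were DESeq2 1.42.0, limma 3.58.1 on log2(TPM + 1) and on log2(TPM + 0.1), other scalings and filters, the label letter as a term, leaving out each library, and 3 chosen after seeing the data: TPM rescaled without Gm23935, JE3 and JE6 left out, and mitochondrially encoded genes summed with nuclear copies. Copies were found as shared 100-base windows in GENCODE vM21 transcripts. Within-letter differences used log2(CPM + 0.5). The edgeR, DESeq2 and limma steps were tested on simulated data. Figures were drawn with matplotlib 3.10.9.

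The members and gene lists were chosen with earlier results of these data known. Named members were all mitochondrially encoded genes, up to 15 nuclear members per comparison with an adjusted p under 0.05 by size of change, the tissue isoforms and their partners, complex II, Cox7a2l and the member with most TPM in each complex. Up to 5 genes per pathway list were named by size among those that passed. Atpif1 is not matched by the member rule under its vM21 symbol and was not followed. Gene members named outside that rule (Ndufaf1, Ndufaf2, Uqcrq, Atp5b) were chosen after their values were seen.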

Additional observations from a re-analysis of the deposited data

Results flagged for a closer look

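A library that stood far from the other 3 of its genotype (a gap to the nearest library above Dixon's 95% critical value, which chance gives in about 5% of groups) was found in 11 of the 117 groups examined. Of these, 7 were JE3 of Gpr124ΔC/ΔC. JE3 had 4378 CPM against 2699.8 to 2897 CPM for mt-Cytb, 2701 CPM against 1814 to 1879 CPM for mt-Nd1, 1108 CPM against 669 to 686 CPM for mt-Nd4, 893 CPM against 641 to 675 CPM for mt-Nd5 and 239.95 CPM against 120.1 to 129.8 CPM for mt-Nd6, and 1.69% of its counts were on mitochondrially encoded members against 1.05% to 1.13%. Atp5mpl in JE3 was at 172 CPM against 131 to 133 CPM. ME4 of Gpr124-/- was low for Ndufb11, at 99.7 CPM against 116 to 117 CPM, and for Uqcr11, at 151 CPM against 183 to 189 CPM. In WT, LE6 was high for Cox6a1, at 419 CPM against 392 to 396 CPM, and JE1 was low for Sdhc, at 94.5 CPM against 115 to 117 CPM.

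In the direct edgeR test between the mutants, 2 of the 100 tested members passed, where 8.82% of all tested genes did. The mutants share no label letter, so letter and genotype cannot be told apart between them. With the letter as a term the differences were -0.28 for Ndufa7 and -0.29 for mt-Nd3, and neither passed. Ndufa7 also lost its call without LE5, ME1, ME4 or ME5, and mt-Nd3 without JE3, ME4 or ME5. Ndufa7 had -0.77 in Gpr124-/- and -0.37 in Gpr124ΔC/ΔC, a difference of -0.40 (SE 0.10, adjusted p = 0.0212) by edgeR, with each of 4 Gpr124-/- libraries below each of 4 Gpr124ΔC/ΔC libraries. mt-Nd3 had -0.68 and 0.33, a difference of -1.01 (SE 0.25, adjusted p = 0.0238) by edgeR, also with no overlap, and with the reads of Gm28438 added the difference was 0.05 (adjusted p = 0.915).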

How the results depend on the processing

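The direction of every nuclear and mitochondrially encoded member that passed held under all 26 alternatives apart from mt-Nd3 between the mutants, which was 0.0506 with its copy's reads added. Of 312 values for the 12 calls of a member, 234 kept the call and 77 lost it. In Gpr124-/- against WT the number of nuclear members that passed was 9, and it was 4 with no filter, 1 with the label letter as a term, 4 by limma on log2(TPM + 1) or on log2(TPM + 0.1), 3 by limma with no filter, and 4 to 10 when 1 library was left out. With the letter as a term, 1025 of all tested genes passed, against 3295 without it. The number of mitochondrially encoded members that passed was 0, and 1 by DESeq2; leaving out 1 library gave 0 to 1 (1, mt-Nd3, without KE8 or JE3). In Gpr124ΔC/ΔC against WT the number of nuclear members was 1, and it was 2 with DESeq2 size factors, 5 by DESeq2, 0 by limma on either log2 scale or with no filter, 1 by limma on TPM rescaled without Gm23935, and 1 to 2 when 1 library was left out (2 without JE3 or KE4). The median nuclear log2 fold change there, -0.08, was -0.0075 under the 3 limma fits on deposited TPM and -0.0054 with TPM rescaled without Gm23935. Between the mutants the number of nuclear members was 1, and it was 0 with the letter as a term, 3 by DESeq2, 2 by limma on rescaled TPM, 0 without JE3 and JE6, and 0 to 2 when 1 library was left out (0 without LE5, ME1, ME4 or ME5 and 2 without KE8). With the letter as a term, 212 of all tested genes passed there, against 1468 without it. The mitochondrially encoded count was 1 and became 0 with the letter, without JE3 and JE6 or with copies summed, and 0 to 1 when 1 library was left out (0 without JE3, ME4 or ME5). The median of nuclear members between the mutants was -0.01, and -0.0848 on rescaled TPM, where the median of all genes also moved, to -0.09. The mean share of counts on nuclear members became 1.6716% in WT, 1.6298% in Gpr124ΔC/ΔC and 1.5845% in Gpr124-/- without hemoglobin genes and the 5 genes with most reads, through the smaller denominator. The cause of the other changes was not tested.

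No paired analysis was possible because the labels give the genotypes no shared replicate numbers. The label letter, which some libraries of different genotypes share, was fitted as a term instead, and for Gpr124-/- against WT letter K holds 1 library of each. The Gpr124-/- values of that fit against WT rest on this pair, and no letter holds both mutants. Low counts kept 6 isoform genes out of the main edgeR fit.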

Other observations

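Uqcrq, a small subunit of complex III, was higher in the libraries of letters K and M than in those of J and L, while mt-Nd3 was lower. Uqcrq was at 181, 192 and 177 CPM in the WT libraries of letters J and L and 309 CPM in the WT library KE8, at 174, 165, 143 and 156 CPM in Gpr124ΔC/ΔC and at 250.2, 207, 224 and 216 CPM in Gpr124-/-. The 7 libraries of letters J and L spanned 143 to 192 CPM and the 5 of letters K and M 207 to 309 CPM. Uqcrq and mt-Nd3, found after looking at all members, were the 2 of 100 tested members whose values did not overlap between these letters, a share near the 1.54% of all tested genes that did not. All Gpr124-/- libraries but none of the Gpr124ΔC/ΔC libraries carry K or M, so letter and genotype cannot be told apart outside the WT library KE8.

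Atp5b, the catalytic subunit of ATP synthase, was the highest complex V member after Atp5mpl, at 1059.95 TPM, and stood at 1461, 1439, 1571 and 1528 CPM in WT and 1516, 1489, 1656 and 1844 CPM in Gpr124-/- (0.12 (SE 0.09, adjusted p = 0.423) by edgeR). ME5, the library with the lowest mitochondrially encoded levels, had the highest Atp5b value of the 12.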
